A study of Mus musculus with 6 samples.

Results

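Foxp3 and 7 other genes that mark or serve regulatory T cells were measured in activated mouse T cells with and without the inhibitory compound of the study. The 8 genes were chosen by name, not by their values, out of 52550 genes listed, and all 8 passed the filter on low counts. The samples were 6 RNA-seq libraries of wild-type mouse splenic CD3+ T cells, isolated magnetically and stimulated for 24 h with anti-CD3/CD28, which engages the T cell receptor (TCR) and its costimulator. In 3 libraries the stimulus was given without the compound (TCR alone), and in 3 it was given with the compound at 100 ng/ml (TCR+LNY1). The sample labels name the compound DMGV, whereas the study's text names LNY1 for this experiment, an activity it ascribes to ADMA and SDMA, of which DMGV is a metabolite. The name TCR+LNY1 is used here, and the labels do not settle which compound was added. The methods of the study give a single age range, of young adult mice, and both sexes for all its mice, and do not say which of its strains gave these cells. No unstimulated sample was analysed here, and regulatory T cells were not sorted from the other T cells.

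Regulatory T cells are CD4 T cells that restrain other immune cells. Foxp3, an X-linked forkhead transcription factor, is needed for their development and function. Helios and Eos, encoded by Ikzf2 and Ikzf4, are Ikaros family zinc finger factors that act with it. Nrp1 encodes neuropilin-1, a coreceptor for semaphorins and VEGF, and Gpr83 encodes a G protein-coupled receptor found on these cells. Latent TGF-beta1, the product of Tgfb1, is held at the cell surface by the Lrrc32 product GARP, and the integrin beta 8 chain encoded by Itgb8 pairs with the alpha V chain to release the active cytokine. Activated conventional T cells also express some of these genes, and these unsorted samples cannot show which cells each level below came from.

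The libraries held 37758725 to 43718867 counts, above the read depth that the labels give. The principal component that took up most of the variance (32.2%) did not separate the groups. TCR alone replicate 3 lay at 42.1 on it and TCR+LNY1 replicate 1 at 42.9, and the other 4 libraries lay between -34.9 and -10.5. Across all genes, 2 of 14786, Slc39a9 and Ahcyl2, passed an adjusted p of 0.05 by edgeR's quasi-likelihood test, a share of 0.0135%. The summed CPM of 10 T cell markers, 9 of which had higher means in TCR+LNY1, was 3028 to 3261 in TCR alone and 3283 to 3427 in TCR+LNY1. Markers of B cells summed to 11.06 to 13.84 CPM over all libraries of TCR alone and to 12.36 to 13.53 in TCR+LNY1. Those of neutrophils reached at most 0.105 CPM, with 7 of 8 at 0 in every library. CPM is a count scaled to the effective size of its library after TMM scaling, and CPM values are not scaled to gene length.

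Foxp3 (ENSMUSG00000039521.12, chromosome X, 7573644 to 7595245, plus strand) was higher in each TCR+LNY1 library than in any TCR alone library, but it did not pass the test adjusted over all genes. It was measured at 27.8, 25.5 and 32.5 CPM in TCR alone replicates 1 to 3 and at 36.2, 35.4 and 38.3 CPM in TCR+LNY1 replicates 1 to 3. The groups did not overlap, and the closest libraries were TCR alone replicate 3 and TCR+LNY1 replicate 2. The means were 28.6 ± 3.60 and 36.7 ± 1.47 CPM (SD, n = 3 each), a ratio of 1.28. The log2 fold change was 0.36 (SE 0.11, 95% interval 0.09 to 0.62), with an unadjusted p of 0.0160 and an adjusted p of 0.9995 by edgeR. The two-sided exact permutation test over the 6 libraries gave p = 0.1, the smallest that 3 against 3 allows. Of the 8 genes, 1 had groups that did not overlap, where 8.86% of all genes tested had such groups and 4.92% had them with TCR+LNY1 higher.

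None of the 8 genes passed the adjusted threshold by edgeR or by DESeq2, for which 0.072% of genes did. At an unadjusted p under 0.05, 1 of the 8 was counted by edgeR, Foxp3, against 3.19% of all genes. This 1 gene was higher in TCR+LNY1, as were 1.63% of all genes, and 0 of the 8 were lower, as were 1.56%. DESeq2 counted 2, Foxp3 and Ikzf2, against 2.22%. The change of Foxp3 was 0.47 without the 2 libraries that stood apart, TCR alone replicate 3 and TCR+LNY1 replicate 1, with an adjusted p of 0.667. Its unadjusted p went above 0.05 when replicate 1 or 2 of TCR alone (0.0568 and 0.0548) or replicate 3 of TCR+LNY1 (0.0601) was left out.

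**Figure D1:**
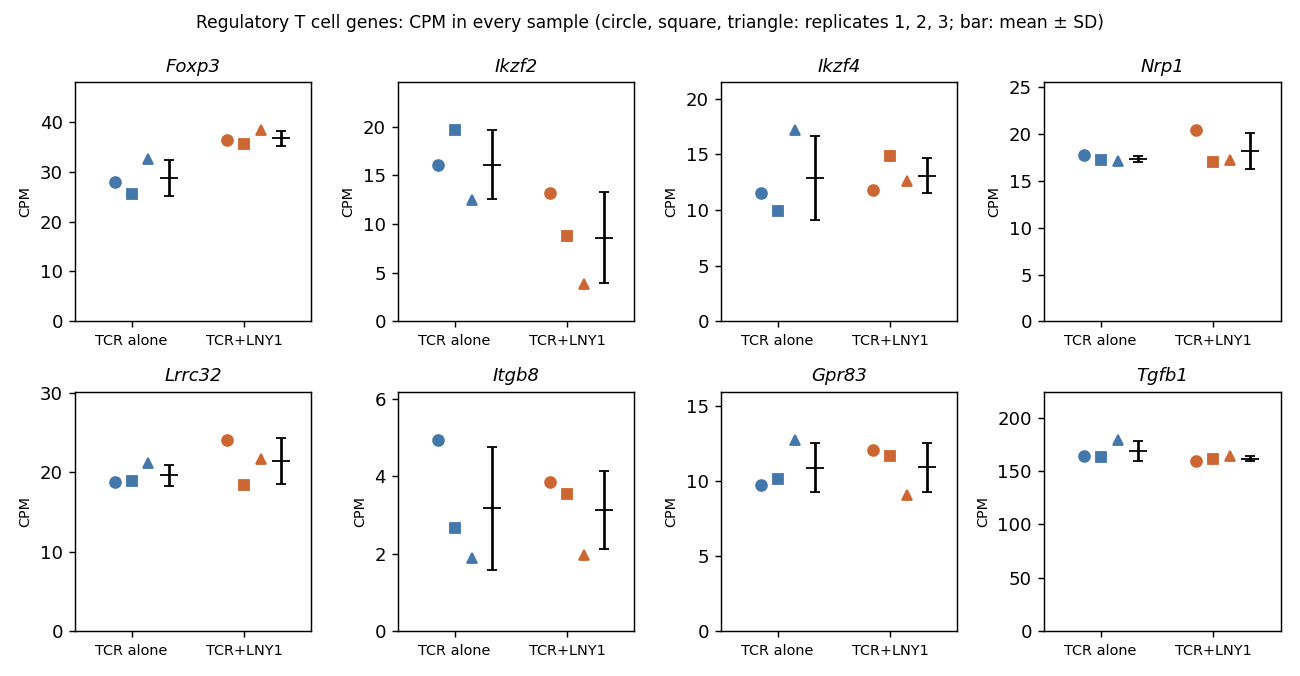
CPM (vertical axis, from 0) of each of the 8 genes in every library, TCR alone in blue and TCR+LNY1 in orange, with the mean and SD of 3 libraries beside the points. Foxp3 had groups that did not overlap (25.5 to 32.5 against 35.4 to 38.3 CPM), whereas the groups of the other 7 genes overlapped.

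In these bulk samples, more Foxp3-expressing cells and more Foxp3 RNA per cell cannot be told apart. The markers of CD4 T cells were also higher in TCR+LNY1, 3 of 3 by their means, and their part in the Foxp3 difference was not tested. Summed over Cd4, Zbtb7b and Cd40lg they gave 266.9 to 277.7 CPM in TCR alone and 294.2 to 307.8 CPM in TCR+LNY1. Cd4 itself, the coreceptor of that lineage, was at 202, 185 and 203 CPM in TCR alone and at 214, 210 and 219 CPM in TCR+LNY1. The groups did not overlap for Cd4 either, with a log2 fold change of 0.13 (SE 0.07) and an unadjusted p of 0.113 by edgeR. Per 100 CPM of Cd4, Foxp3 stood at 13.8, 13.8 and 16.1 CPM in TCR alone and at 16.9, 16.9 and 17.5 CPM in TCR+LNY1, a ratio that was chosen after the values were seen. The groups of this ratio did not overlap (exact permutation p = 0.1, the smallest possible). Set against Cd3e, a chain of the TCR complex, Foxp3 averaged 9.93 ± 1.05 and 12.2 ± 0.0380 CPM per 100 (SD, n = 3 each), again without overlap. Ratios of Foxp3 to Ikzf2, Gpr83 and Il2ra, the IL-2 receptor alpha chain, also did not overlap (exact permutation p = 0.1 for each). Every ratio of Foxp3 here shares the Foxp3 values, whose own groups did not overlap, so these ratios are not separate evidence of a difference. How often such ratios fail to overlap over all genes was not examined. Per 100 CPM of Ikzf2, Foxp3 averaged 188 ± 66.3 and 557 ± 382 CPM (SD, n = 3 each). Per 100 CPM of Gpr83 it averaged 264 ± 18.55 and 342 ± 69.5 CPM. Per 100 CPM of Il2ra it averaged 2.81 ± 0.547 and 3.81 ± 0.205 CPM. The ratios of Foxp3 to Ctla4 and Lrrc32 did overlap between the groups. Per 100 CPM of Ctla4, an inhibitory receptor of regulatory and activated T cells, Foxp3 averaged 48.5 ± 16.1 and 71.5 ± 12.4 CPM, and per 100 CPM of Lrrc32 it averaged 146 ± 9.93 and 173 ± 21.7 CPM (SD, n = 3 each, exact permutation p = 0.2 for both). Cd4 per 100 CPM of Cd8a, the coreceptor of the CD8 lineage, averaged 66.2 ± 1.42 and 66.2 ± 4.25 CPM.

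**Figure D2:**
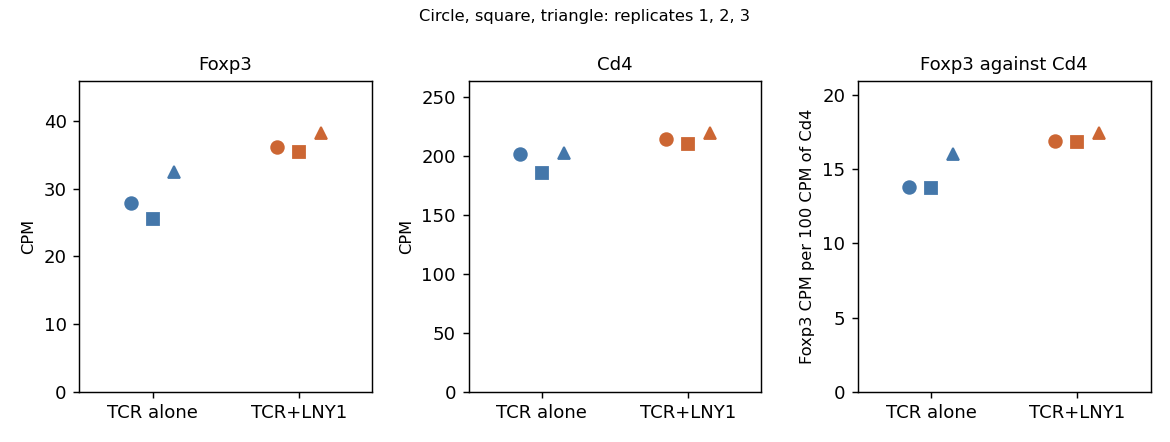
Foxp3 and Cd4 in CPM and Foxp3 CPM per 100 CPM of Cd4 (vertical axes, from 0) in every library of TCR alone (blue) and TCR+LNY1 (orange). The ratio ran from 13.8 to 16.1 in TCR alone and from 16.9 to 17.5 in TCR+LNY1.

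RefSeq promoters of 2 Foxp3 starts are shown because transcripts from these starts held most of the Foxp3 counts in every library. Another annotated start lies further downstream, at 7586273, and its transcript, ENSMUST00000045566.6, had 35 counts (2.31%) in TCR+LNY1 replicate 3 and 1 count in each other library. Each line gives the 250 bases before a start, 5′ to 3′ on the plus strand, from RefSeq (GRCm38.p6). The upstream window is chrX:7579426-7579675 and the downstream one chrX:7580233-7580482, and these starts lie 807 bases apart. Capitals mark TATAAA, the letters of the TATA box.
Foxp3 upstream promoter: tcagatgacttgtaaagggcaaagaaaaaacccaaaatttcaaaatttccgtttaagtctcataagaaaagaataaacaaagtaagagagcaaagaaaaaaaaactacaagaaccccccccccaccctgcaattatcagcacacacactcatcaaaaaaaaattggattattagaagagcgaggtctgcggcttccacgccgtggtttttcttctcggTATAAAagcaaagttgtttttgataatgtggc
Foxp3 downstream promoter: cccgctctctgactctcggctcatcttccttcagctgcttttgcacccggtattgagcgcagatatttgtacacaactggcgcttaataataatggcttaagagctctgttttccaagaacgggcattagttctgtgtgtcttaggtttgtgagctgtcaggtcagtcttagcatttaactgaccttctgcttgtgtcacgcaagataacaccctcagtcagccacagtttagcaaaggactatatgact
TATAAA was found on the plus strand of the upstream window, beginning 32 bases before the start, and on neither strand of the downstream window. Of 32851 promoter windows of the same length, 12.4% held it on either strand. GGAAA, the core of NFAT sites, was found once in each window on the reverse strand and in 55.6% of all windows. TGAGTCA, the AP-1 site, was in neither window and in 4.46% of all windows, and none of these motifs overlapped another. RefSeq promoters were at hand for 5 of the 8 genes.

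Transcripts from the upstream start held 95.3, 67.7 and 94.3% of the Foxp3 transcript counts in TCR alone, against 95.5, 84.1 and 85.8% in TCR+LNY1. The groups overlapped, and the share differed by less than its spread (exact permutation p = 0.8). The downstream start held 335 counts in TCR alone replicate 2 and 49 to 242 in the other libraries. In the GENCODE M21 annotation all 4 Foxp3 transcripts carry 1 coding sequence of 1287 bases, so that the starts differ outside the coding sequence. The 2 upstream-start transcripts, ENSMUST00000115739.7 and ENSMUST00000115740.7, have other versions in that annotation and were matched without the version. ENSMUST00000115739.7, which led in every library, changed by 0.36 on the log2 scale (SE 0.25, adjusted p = 1.0 by edgeR).

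Ikzf2 (ENSMUSG00000025997.13, chromosome 1, 69531214 to 69687245, minus strand), which encodes Helios, had a lower mean in TCR+LNY1. It was at 16.1, 19.6 and 12.5 CPM in TCR alone and at 13.2, 8.73 and 3.86 CPM in TCR+LNY1. The groups overlapped through TCR alone replicate 3 and TCR+LNY1 replicate 1, the libraries that stood apart on the principal component. The means were 16.1 ± 3.56 and 8.60 ± 4.68 CPM (SD, n = 3 each). The log2 fold change was -0.90 (SE 0.41, 95% interval -1.86 to 0.06), with an unadjusted p of 0.0618 and an adjusted p of 0.9995 by edgeR, and DESeq2 gave an unadjusted p of 0.0163. The value rested on single libraries. Leaving out replicate 3 of TCR+LNY1 gave -0.55, leaving out its replicate 1 gave -1.35, and leaving out both libraries that stood apart gave -1.50, with an adjusted p of 0.667 in the last fit.

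The transcripts of Ikzf2 stood apart in 1 library. ENSMUST00000027146.8 held 81.5, 99.4 and 93.8% of the gene's transcript counts in TCR alone, against 97.1, 86.4 and 22.2% in TCR+LNY1. TCR+LNY1 replicate 3, the library with the lowest Ikzf2, gave 77.8% of its counts to ENSMUST00000187184.6, which held 0.266 to 18.3% elsewhere. The latter lacks 78 coding bases, or 26 codons, of the former. They are shown in capitals because they are the coding difference between the 2 transcripts, with 15 bases of the transcript on each side, from GENCODE M21 (GRCm38, chr1:69577781-69577858, minus strand, 5′ to 3′ in the transcript).
Ikzf2 coding stretch: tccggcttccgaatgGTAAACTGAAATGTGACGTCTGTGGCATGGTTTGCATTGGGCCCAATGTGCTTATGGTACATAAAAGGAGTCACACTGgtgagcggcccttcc
In TCR+LNY1 replicate 3 the split rested on 34 and 119 counts.

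Ikzf4 (ENSMUSG00000002578.17, chromosome 10, 128630843 to 128645991, minus strand), which encodes Eos, was at 11.6, 9.92 and 17.2 CPM in TCR alone and at 11.8, 14.9 and 12.6 CPM in TCR+LNY1. The TCR+LNY1 values lay within the range of TCR alone, and the log2 fold change was 0.02 (SE 0.22, 95% interval -0.49 to 0.53). Its transcripts varied more between libraries than its total. ENSMUST00000133342.9, the coding transcript that led over all libraries together, held 18.2 to 82.0% of the counts. ENSMUST00000223162.1, annotated as a target of nonsense-mediated decay, held 80.5, 1.98 and 35.6% in TCR alone, against 19.4, 12.2 and 1.40% in TCR+LNY1 (exact permutation p = 0.3). Its coding part ends in 32 bases that ENSMUST00000133342.9 does not code for, shown in capitals after 15 shared bases (GRCm38, chr10:128643734-128643765, minus strand, 5′ to 3′).
Ikzf4 inserted exon, coding part: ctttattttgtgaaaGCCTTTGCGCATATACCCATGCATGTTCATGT
Of the other Ikaros family genes, 3 of 3 were tested and none passed the adjusted threshold or an unadjusted p of 0.05 by edgeR or DESeq2. Ikzf1, which encodes Ikaros, averaged 261 ± 9.99 and 282 ± 9.28 CPM, with a log2 fold change of 0.11 (SE 0.07). Ikzf5, which encodes Pegasus, had a log2 fold change of -0.17 (SE 0.10).

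**Figure D3:**
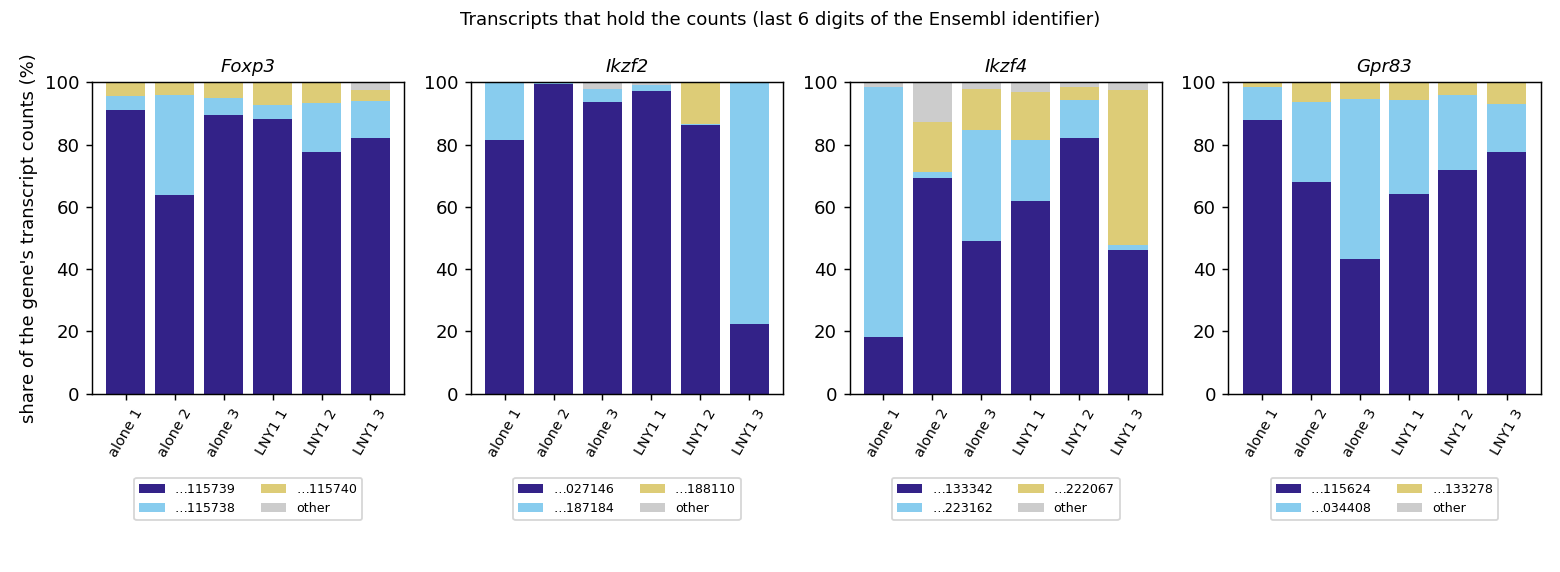
Share of each gene's transcript counts (vertical axis, %) held by its 3 leading transcripts in every library, for Foxp3, Ikzf2, Ikzf4 and Gpr83, with the remainder in grey. TCR+LNY1 replicate 3 stood apart for Ikzf2, with 22.2% on the transcript that held 81.5 to 99.4% elsewhere.

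Among the surface receptors, Nrp1 (ENSMUSG00000025810.9) was at 17.7, 17.2 and 17.1 CPM in TCR alone and at 20.4, 16.9 and 17.2 CPM in TCR+LNY1. TCR+LNY1 replicate 1 was the high library, and the rest lay within 1 CPM of each other. The log2 fold change was 0.07 (SE 0.11, 95% interval -0.19 to 0.33) and became -0.03 without TCR+LNY1 replicate 1. Of 16 neuropilin partners, 10 were tested, and none passed the adjusted threshold or an unadjusted p of 0.05 by edgeR or DESeq2. The mean was lower in TCR+LNY1 for 9 of the 10, and for 7303 of all 14786 genes tested. The median log2 fold change of the 10 was -0.07 against 0.0024 over all genes tested. The list was chosen with earlier results of these data known. Plxnb1, a plexin receptor, had a log2 fold change of -0.51 (SE 0.32), and Vegfa, a ligand of neuropilin-1, had one of -0.29 (SE 0.20). Single libraries carried much of both, since Plxnb1 was at -0.25 with TCR alone replicate 1 left out and Vegfa at -0.10 with TCR alone replicate 2 left out.

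Gpr83 (ENSMUSG00000031932.14, chromosome 9, 14860210 to 14870789, plus strand) was at 9.77, 10.1 and 12.8 CPM in TCR alone and at 12.1, 11.7 and 9.06 CPM in TCR+LNY1. The groups overlapped throughout, and the log2 fold change was 0.0041 (SE 0.17, 95% interval -0.40 to 0.40). ENSMUST00000115624.2 held 87.9, 67.9 and 43.3% of its transcript counts in TCR alone, against 64.1, 71.9 and 77.7% in TCR+LNY1 (exact permutation p = 0.8). It lacks a 126-base coding exon, 42 codons, that ENSMUST00000034408.11 includes. That exon is shown in capitals because the 2 transcripts together held most Gpr83 counts, with 15 flanking bases on each side (GENCODE M21, GRCm38, chr9:14864772-14864897, plus strand, 5′ to 3′).
Gpr83 cassette exon: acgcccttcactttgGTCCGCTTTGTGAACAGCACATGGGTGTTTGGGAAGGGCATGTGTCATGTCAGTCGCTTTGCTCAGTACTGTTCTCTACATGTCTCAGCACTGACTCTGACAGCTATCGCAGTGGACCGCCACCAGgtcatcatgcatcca
The share of the transcript with the exon ran from 10.8% in TCR alone replicate 1 to 51.2% in TCR alone replicate 3, so that the spread within TCR alone covered all TCR+LNY1 values.

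Tgfb1 (ENSMUSG00000002603.15, chromosome 7, 25687002 to 25705077, plus strand) was the most abundant of the 8 genes. It was at 164, 163 and 179 CPM in TCR alone and at 159, 162 and 164 CPM in TCR+LNY1. TCR alone replicate 3 was the high library, and the groups overlapped. The log2 fold change was -0.06 (SE 0.07), and its 95% interval of -0.23 to 0.11 was the narrowest of the 8. The change was -0.01 with TCR alone replicate 3 left out and -0.10 with TCR alone replicate 1 left out. Its leading transcript, ENSMUST00000002678.9, held 98.5 to 99.3% of the counts in every library.

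Lrrc32 (ENSMUSG00000090958.2, chromosome 7, 98489283 to 98502181, plus strand), whose product GARP holds latent TGF-beta1, was at 18.7, 18.9 and 21.2 CPM in TCR alone and at 24.1, 18.4 and 21.7 CPM in TCR+LNY1. Both the highest and the lowest library were of TCR+LNY1, and the log2 fold change was 0.12 (SE 0.13, 95% interval -0.18 to 0.43). The change was 0.03 with replicate 1 of TCR+LNY1 left out and 0.22 with its replicate 2 left out. Itgb8 (ENSMUSG00000025321.14, chromosome 12, 119158022 to 119238802, minus strand) was the least abundant of the 8, with 78 to 188 counts a library. It was at 4.95, 2.67 and 1.88 CPM in TCR alone and at 3.86, 3.53 and 1.97 CPM in TCR+LNY1. The log2 fold change was -0.02, and its 95% interval of -0.98 to 0.94 did not exclude changes of nearly 1 on the log2 scale in either direction.

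Of 18 other genes that handle latent TGF-beta, 10 were tested, and none passed the adjusted threshold or an unadjusted p of 0.05 by edgeR or DESeq2. Itgav, the alpha V partner of Itgb8, had a log2 fold change of 0.23 (SE 0.21), and Itgb1, another integrin beta chain, one of -0.14 (SE 0.14). Hsp90b1, which encodes the chaperone that GARP needs to reach the cell surface, was at 1020, 1096 and 384 CPM in TCR alone and at 366, 896 and 840 CPM in TCR+LNY1. Its low libraries were the 2 that stood apart on the principal component, 1 in each group. Of 24 TGF-beta receptors, Smads and their regulators, 23 were tested and again none passed either threshold by either tool. Tgfbr2, the type 2 receptor, averaged 69.3 ± 3.9 and 76.0 ± 2.6 CPM, with a log2 fold change of 0.13 (SE 0.08). Its CPM groups did not overlap, as was so for 8.86% of all genes tested. In the deposited FPKM values, which account for gene length and library size, its groups did overlap. They ran from 6.98 to 8.16 in TCR alone and from 7.81 to 8.42 in TCR+LNY1. Smad5 had a log2 fold change of 0.19 (SE 0.12), and Usp15, a deubiquitinase of the pathway, one of 0.06 (SE 0.10).

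**Figure D4:**
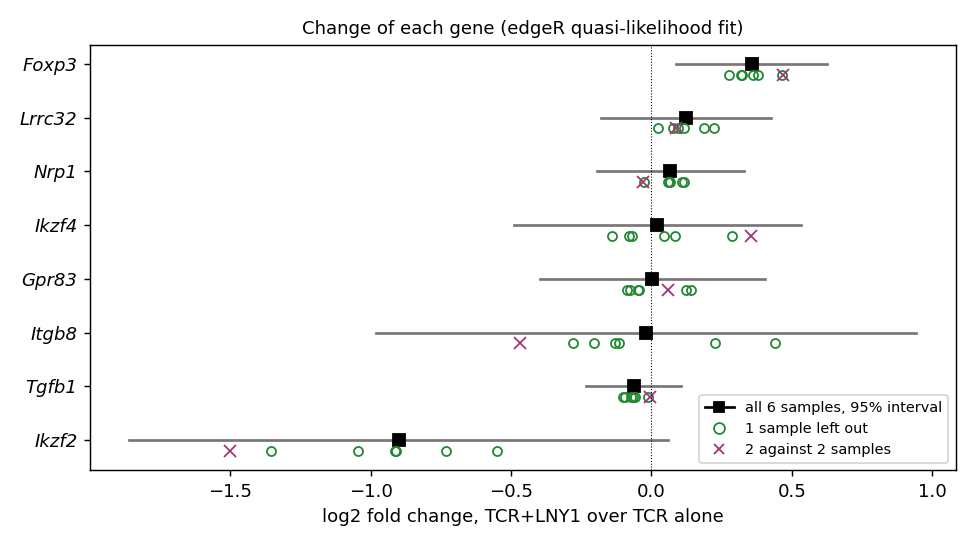
Log2 fold change of each gene, TCR+LNY1 over TCR alone (horizontal axis), with its 95% interval (squares and lines), with 1 library left out (circles) and without the 2 libraries that stood apart (crosses). The interval of Foxp3, 0.09 to 0.62, lay above 0, and those of the other 7 genes included 0.

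Of the 39 listed transcripts of the 8 genes, 36 had a count and 22 were tested. By edgeR 0 of the 22 passed the adjusted threshold, as did 0% of 38401 transcripts, and 0 had an unadjusted p under 0.05, against 3.22%. The groups did not overlap for 1 of the 22, against 9.25% of all transcripts. It was ENSMUST00000212833.1, a retained-intron transcript of Nrp1 named after its values were seen, with 4, 6 and 0 counts in TCR alone and with 19, 11 and 29 in TCR+LNY1.

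Per length, the genes spanned a wide range. In FPKM, which is scaled to gene length, Tgfb1 ran from 28.1 to 32.4 over the 6 libraries, Foxp3 from 5.57 to 8.34 and Lrrc32 from 3.43 to 4.67, and these ranges did not overlap. Ikzf4 (1.44 to 2.60), Gpr83 (1.54 to 2.28) and Nrp1 (1.51 to 1.89) came next and overlapped each other. Ikzf2 ran from 0.289 to 1.48 and overlapped Ikzf4 above it and Itgb8 (0.153 to 0.399) below it. The FPKM groups of Foxp3 did not overlap, at 5.57 to 7.42 in TCR alone and 7.78 to 8.34 in TCR+LNY1.

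**Figure D5:**
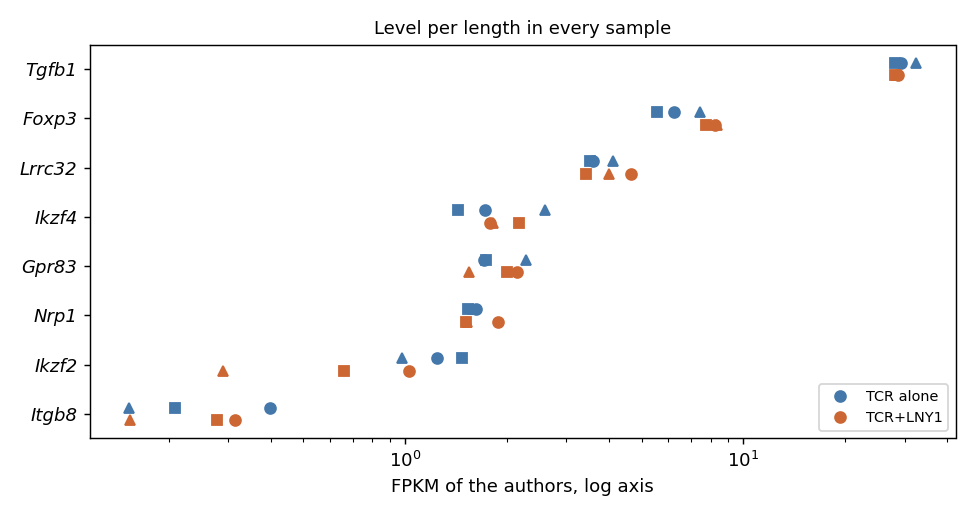
FPKM of each gene (horizontal log axis) in every library of TCR alone (blue) and TCR+LNY1 (orange), ordered by mean. Tgfb1, Foxp3 and Lrrc32 each held a range of their own, and Ikzf4, Gpr83 and Nrp1 shared one.

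Among genes that regulate Foxp3 or act with it, none passed the adjusted threshold by edgeR. Of 34 tested, 5 had an unadjusted p under 0.05 by edgeR and 4 by DESeq2 (Bach2, Nr4a1, Nr4a2 and Tet2). Over all genes the shares were 3.19% by edgeR and 2.22% by DESeq2. By edgeR the 5 genes were 2 with higher and 3 with lower levels in TCR+LNY1, where 1.63% and 1.56% of all genes were. The median log2 fold change of the list was 0.008. The list was chosen with earlier results of these data known, so its counts cannot show an excess over these shares. Bach2, a transcriptional repressor that restrains effector differentiation, was at 222, 179 and 94.7 CPM in TCR alone and at 66.9, 68.8 and 94.4 CPM in TCR+LNY1. TCR alone replicate 3 and TCR+LNY1 replicate 3 were nearly level. Its log2 fold change was -1.11 (SE 0.30), with an adjusted p of 0.9995 by edgeR and of 0.0464 by DESeq2, the sole call of DESeq2 in this list. Nr4a1, a nuclear receptor induced by TCR signals, was at 215, 208 and 245 CPM in TCR alone and at 302, 267 and 262 CPM in TCR+LNY1 (log2 fold change 0.32, SE 0.09, unadjusted p = 0.0120 and adjusted p = 0.9995 by edgeR). Its relative Nr4a2 (0.33, SE 0.11), the DNA demethylating enzyme Tet2 (-0.33, SE 0.13) and the histone methyltransferase Ezh2 (-0.17, SE 0.07) were the other 3 and were named after their values were seen. Satb1, a chromatin organiser and the most abundant of the list, had a log2 fold change of 0.09 (SE 0.12).

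Of 30 further genes associated with regulatory T cells, 29 were tested, none passed the adjusted threshold by edgeR or DESeq2, and 1 had an unadjusted p under 0.05 by edgeR and 2 by DESeq2 (Il10 and Plagl1, the latter named after its values were seen), against 3.19% and 2.22% of all genes. The gene that edgeR counted was Il10, which encodes an anti-inflammatory cytokine, at 4.45, 4.95 and 4.47 CPM in TCR alone, against 2.67, 3.04 and 3.61 CPM in TCR+LNY1. The groups did not overlap (log2 fold change -0.57, SE 0.18, unadjusted p = 0.0157 and adjusted p = 0.9995 by edgeR). Itgae, the integrin alpha E chain, had the next lowest p, with a log2 fold change of 0.43 (SE 0.22). Il2ra, the IL-2 receptor alpha chain that activated T cells also carry, averaged 1029 ± 71.9 and 963 ± 14.9 CPM. The median log2 fold change of the 29 genes was 0.02. Of 8 genes that Foxp3 is known to hold down, none passed either threshold by either tool. Among them were Ifng, the interferon gamma gene (log2 fold change 0.12, SE 0.13), Pde3b, a phosphodiesterase (-0.19, SE 0.15), and Il7r, the IL-7 receptor (-0.16, SE 0.15).

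Across the 6 libraries, the log2 CPM of Foxp3 was most like that of Arl16 (Pearson r = 0.989), Rpp25l (r = 0.989) and Cd6 (r = 0.988) among 9042 genes with a mean log2 CPM above 3. Of these genes, 151 had r above 0.9. Among the other 7 genes of the set, r with Foxp3 ran from -0.798 for Ikzf2 to 0.585 for Lrrc32. These are descriptions over 6 libraries that share the group difference and the library scaling.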

How the data were processed

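Libraries of 6 samples, 3 per group, were sequenced, and groups were taken from the sample labels. The authors filtered reads with SOAPnuke, mapped them with HISAT2 2.0.4 and estimated expression with StringTie. The submitters' processing notes name mm9, but 99.72% of the deposited gene identifiers were found in GENCODE M21 (GRCm38) without their version and 93.31% with it, so coordinates are those of M21. The deposited counts, given for genes and for transcripts, are integers without normalization. The deposited FPKM values account for gene length and library size. How the counts were derived from StringTie is not given in the sources used here, and how reads are divided between overlapping transcripts of a gene is an estimate.

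Genes were tested with edgeR 4.0.16 (quasi-likelihood, two-sided, TMM, filterByExpr) and adjusted by Benjamini-Hochberg over all genes, and transcripts likewise over all transcripts, of which 0 of 38401 passed and 1235 had an unadjusted p under 0.05. Single values were compared by exact permutation tests over 20 arrangements of the samples. Alternatives were DESeq2 1.42.0, limma 3.58.1 on log2(FPKM + 1) and log2(FPKM + 0.1), other scalings and filters, a GC correction and samples left out. On simulated data with 14457 genes for this comparison, 44% of the genes given a log2 change of 1 were recovered and 1% of those given 0.5, and 10% of calls were false.

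No 2 samples agreed within sampling noise (median chi-square per gene 5.33 to 17.34 against 0.45). The labels call replicates biological, but do not say whether they came from separate animals, so that p-values measure the spread between these samples. Same-numbered samples deviated together at correlations of -0.154, 0.121 and -0.148, so the numbers were not taken as pairs. The members were picked by name, not by their values. Earlier results of these data were known when they and the gene lists were chosen. Named genes were all 8 members and, from each list, any gene past the adjusted threshold, the 2 of smallest unadjusted p and the most abundant, with the 3 genes most like Foxp3. The values of 1 gene that this rule names are not reported here.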

Additional observations from a re-analysis of the deposited data

How the results depend on the processing

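None of the 8 genes passed the adjusted threshold under any alternative. Over the other settings with all libraries or without the 2 that stood apart, Foxp3 ranged from 0.31 to 0.47 on the log2 scale. Over the same settings Ikzf2 ranged from -1.50 to -0.45. The 0.31 of Foxp3 and the -0.45 of Ikzf2 came from limma on log2(FPKM + 1). On log2(FPKM + 0.1) limma gave 0.34 for Foxp3 and -0.93 for Ikzf2. With 1 library left out, Foxp3 ranged from 0.28 to 0.47 and Ikzf2 from -1.35 to -0.55. The count of all genes past the threshold, 2 in the main test, was 14 by DESeq2, 1 with library size alone, 1 with every gene that had a count, 0 by limma on either FPKM scale, 12 with 2 libraries against 2 and 0 to 5 with 1 library left out. Among the lists, 1 gene was called by DESeq2 (Bach2) and 1 with 2 libraries against 2 (Nr4a3, named after its values were seen). Transcript calls were 0 to 1 with 1 library left out. The cause of these shifts was not tested.

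Some changes, mostly those near 0, took the other sign under some settings, and others kept their sign but varied in size. Gpr83 was at -0.0007 by DESeq2, -0.0021 with RLE factors, -0.0099 with library size alone, -0.0086 and -0.013 by limma with pseudocounts of 1 and 0.1, -0.0014 with the GC correction and -0.086 to 0.14 with 1 library left out. Itgb8 was at 0.0081 by limma with a pseudocount of 0.1, 0.14 with the GC correction, -0.47 with 2 libraries against 2 and -0.28 to 0.44 with 1 library left out. Nrp1 was at -0.031 with 2 libraries against 2 and -0.026 to 0.12 with 1 left out, and Ikzf4 was at 0.35 (unadjusted p = 0.0805 by edgeR) with 2 libraries against 2 and at -0.14 to 0.29 with 1 left out. Usp15 was at -0.0055 with 2 libraries against 2 and -0.029 to 0.14 with 1 left out, and Hsp90b1 at -0.59 to 0.059 with 1 left out. The sign held with 1 left out for Itgav (0.09 to 0.41), Smad5 (0.08 to 0.25) and Itgae (0.28 to 0.55). It also held for Il7r (-0.28 to -0.07) and Pde3b (-0.31 to -0.07).

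With the replicate number as a block, 0 genes and 0 transcripts passed by edgeR, Itgb8 was at 0.033, Foxp3 at 0.36 (unadjusted p = 0.0194) and Ikzf2 at -1.04 (unadjusted p = 0.0167), and 2 of 6 libraries correlated best with the same number in the other group.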
